A study of Mus musculus with 2 samples.

Results

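The 10 genes described here encode cytokines, or chains and carriers of cytokines, with which antigen-presenting cells instruct T cells and natural killer (NK) cells: Il12b, Il12a, Il15, Il15ra, Il18, Il1b, Tnf, Tgfb1, Il10 and Ebi3. They were chosen by name, and all 10 were present among the 27032 genes of the tables. Their levels were read in classes of splenic cells defined by other genes. The data were single-cell transcriptomes of cells enriched from spleen with CD11c beads, from 2 samples of wild-type mice on the C57BL/6J background (replicates 1 and 2), labelled with sample tags and captured with barcoded beads on the BD Rhapsody system. There was no treatment, no infection and no other genotype, and the sources do not say how many mice each sample held. Each transcript was counted once by its unique molecular identifier (UMI). The p-values below measure only the spread between these 2 samples, which may be technical.

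Of 6393 deposited cells, 5653 passed filters set after the study's description, 2928 in replicate 1 and 2725 in replicate 2. By UMIs of 1 or a pair of genes, taken in a fixed order, 4435 of them were placed in 9 classes. These were macrophages (Vcam1 and C1qb, 293 and 130 cells), mature dendritic cells (DCs) with Ccr7 and Fscn1 (138 and 173), conventional type 1 DCs, or cDC1s, with Clec9a and Xcr1 (684 and 570), plasmacytoid DCs (pDCs) with Siglech and Ccr9 (13 and 19), B cells with Cd79a (65 and 172), T cells with Cd3e (41 and 159), NK cells with Ncr1 (38 and 36), and conventional type 2 DCs split into those with Clec4a4 (DCIR2 cDC2s, 556 and 456) and those with Clec10a or Cd209a (CLEC10A cDC2s, 484 and 408). The other 616 and 602 cells met no gate. In 8 of the 9 classes every marker gene from a list that held no gate gene exceeded the mean of the other 8 classes. In pDCs 8 of 9 did. The lists were chosen with earlier results of these data known, so they are not an independent check of the class names. The pDC class held 32 cells, of which 21 also met the gate of another class. So did 29 of 138 and 43 of 173 mature DCs. Of the DCIR2 cDC2s, 209 of 556 and 156 of 456 also met the gate of CLEC10A cDC2s. Differences between 2 single classes were not refitted without cells that met several gates. Levels are given as UMIs per 1000000 UMIs of the class (CPM). The marker lists did not set the cDC2 classes apart from all others. All 7 markers of DCIR2 cDC2s were also higher in CLEC10A cDC2s, and 6 were in mature DCs. The CLEC10A cDC2 list summed to 4811 and 6644 CPM in macrophages, against 2300 and 2931 CPM in its own class.

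IL-12 is a pair of chains, p40 encoded by Il12b and p35 encoded by Il12a, and it drives interferon-gamma production by NK cells and type 1 helper T cells. The same chains are reused: p40 also joins p19 (Il23a) in IL-23, p35 also joins EBI3 in IL-35, and EBI3 joins p28 (Il27) in IL-27. IL-15 is presented to NK cells and memory CD8+ T cells on the IL-15 receptor alpha chain of the cell that makes it, IL-18 and IL-1 beta are made as precursors that caspase-1 cleaves, and TGF-beta 1 and IL-10 restrain the response.

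The genes lie on 8 chromosomes of GRCm38 (GENCODE M21 annotation): Il12b at chr11:44400063-44414033, Il12a at chr3:68690644-68698547, Il15 at chr8:82331632-82403222, Il15ra at chr2:11705290-11734317, Il18 at chr9:50554827-50581840, Il1b at chr2:129364570-129371139, Tnf at chr17:35199381-35202007, Tgfb1 at chr7:25687002-25705077, Il10 at chr1:131019845-131024974 and Ebi3 at chr17:55952640-55957022. The annotation places other genes across Il18 (Bco2 and Tex12), Il1b (Il1bos) and Ebi3 (Gm16712). The sources do not say whether the counting used the strand, so reads of those neighbours cannot be told apart from the 3 cytokine genes.

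The 250 bases before the annotated starts are shown for the IL-12 chains, which were highest in different classes, and for Il15ra and Tnf, which were highest in the same class as Il12b. RefSeq promoters (GRCm38.p6) were held for 8 of the 10 genes, in 10 windows. Both strands were searched for 6 motifs, and C/EBP (TTNNGCAA, in 9.56%) and ISRE (GAAA, any 2 bases and GAAA, in 2.98%) sites had no match in these windows. Capitals mark every match to an NF-kB site (GGG and CC with any 5 bases between, in 45.8% of 32851 promoters of this length), a shorter NF-kB site (GGGAANTTT, in 1.03%), a TATA box (TATAAA, in 12.4%) or an AP-1 site (TGANTCA, in 6.75%). Il12b, chr11:44399813-44400062 (+), held the shorter NF-kB site from 131 to 123 bases before the start, read on the opposite strand. Of the 2 starts of Il12a, the window at chr3:68690394-68690643 (+) held no match and the one at chr3:68691174-68691423 (+) held overlapping NF-kB matches. Of the 2 windows of Il15ra, the one at chr2:11705043-11705292 (+) held no match and is not printed, and the one at chr2:11705462-11705711 (+) held an NF-kB and an AP-1 match. Tnf, chr17:35202008-35202257 (-), held an NF-kB match and a TATA box. A match describes these letters only, and binding was not measured.
Il12b: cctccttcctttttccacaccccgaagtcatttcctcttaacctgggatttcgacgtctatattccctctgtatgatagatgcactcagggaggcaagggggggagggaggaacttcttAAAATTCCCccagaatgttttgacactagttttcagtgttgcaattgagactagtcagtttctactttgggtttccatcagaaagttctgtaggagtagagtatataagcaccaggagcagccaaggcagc
Il12a first start: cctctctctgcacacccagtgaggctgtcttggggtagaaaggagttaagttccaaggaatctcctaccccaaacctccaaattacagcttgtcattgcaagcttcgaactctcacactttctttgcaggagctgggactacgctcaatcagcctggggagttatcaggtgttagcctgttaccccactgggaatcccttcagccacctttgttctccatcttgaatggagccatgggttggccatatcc
Il12a second start: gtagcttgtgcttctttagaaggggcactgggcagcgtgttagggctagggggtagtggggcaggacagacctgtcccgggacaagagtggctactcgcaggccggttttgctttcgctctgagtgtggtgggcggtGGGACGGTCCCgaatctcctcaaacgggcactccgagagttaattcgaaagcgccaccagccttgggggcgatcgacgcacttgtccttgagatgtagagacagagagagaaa
Il15ra: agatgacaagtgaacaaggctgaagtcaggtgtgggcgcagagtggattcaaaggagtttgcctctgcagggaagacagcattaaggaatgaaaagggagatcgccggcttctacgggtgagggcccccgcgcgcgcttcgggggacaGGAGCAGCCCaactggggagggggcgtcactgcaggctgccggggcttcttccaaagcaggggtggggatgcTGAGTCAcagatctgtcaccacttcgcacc
Tnf: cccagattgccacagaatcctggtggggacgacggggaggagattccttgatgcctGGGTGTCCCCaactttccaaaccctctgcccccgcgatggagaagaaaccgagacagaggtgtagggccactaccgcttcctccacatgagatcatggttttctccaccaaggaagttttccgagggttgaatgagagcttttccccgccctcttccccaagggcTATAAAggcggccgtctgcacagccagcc

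Across the 9 classes the 10 genes fell into distinct orders. Il12b, Il15, Il15ra and Tnf had their highest mean level in mature DCs, Il18 and Il10 in macrophages, Il1b in CLEC10A cDC2s and Il12a in B cells. Ebi3 varied little among macrophages and DCs other than pDCs, and Tgfb1 had its lowest mean level in mature DCs. UMIs summed per sample and class were compared between each class and the mean of the other 8 classes with edgeR's quasi-likelihood test, with Benjamini-Hochberg adjustment over 11917 genes. In mature DCs, 6 of the 10 genes were higher and 1 was lower, where 31.9% of all genes differed. In macrophages 7 were higher, where 51.3% of all genes differed, and in cDC1s 5 were higher, where 39.6% did. Over the 10 genes, those with few or no UMIs in the class included, the median fitted log2 difference was 1.26 in mature DCs against 0.04 over all genes tested, 0.87 against 0.05 in macrophages and 0.62 against 0.09 in cDC1s.

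**Figure D1:**
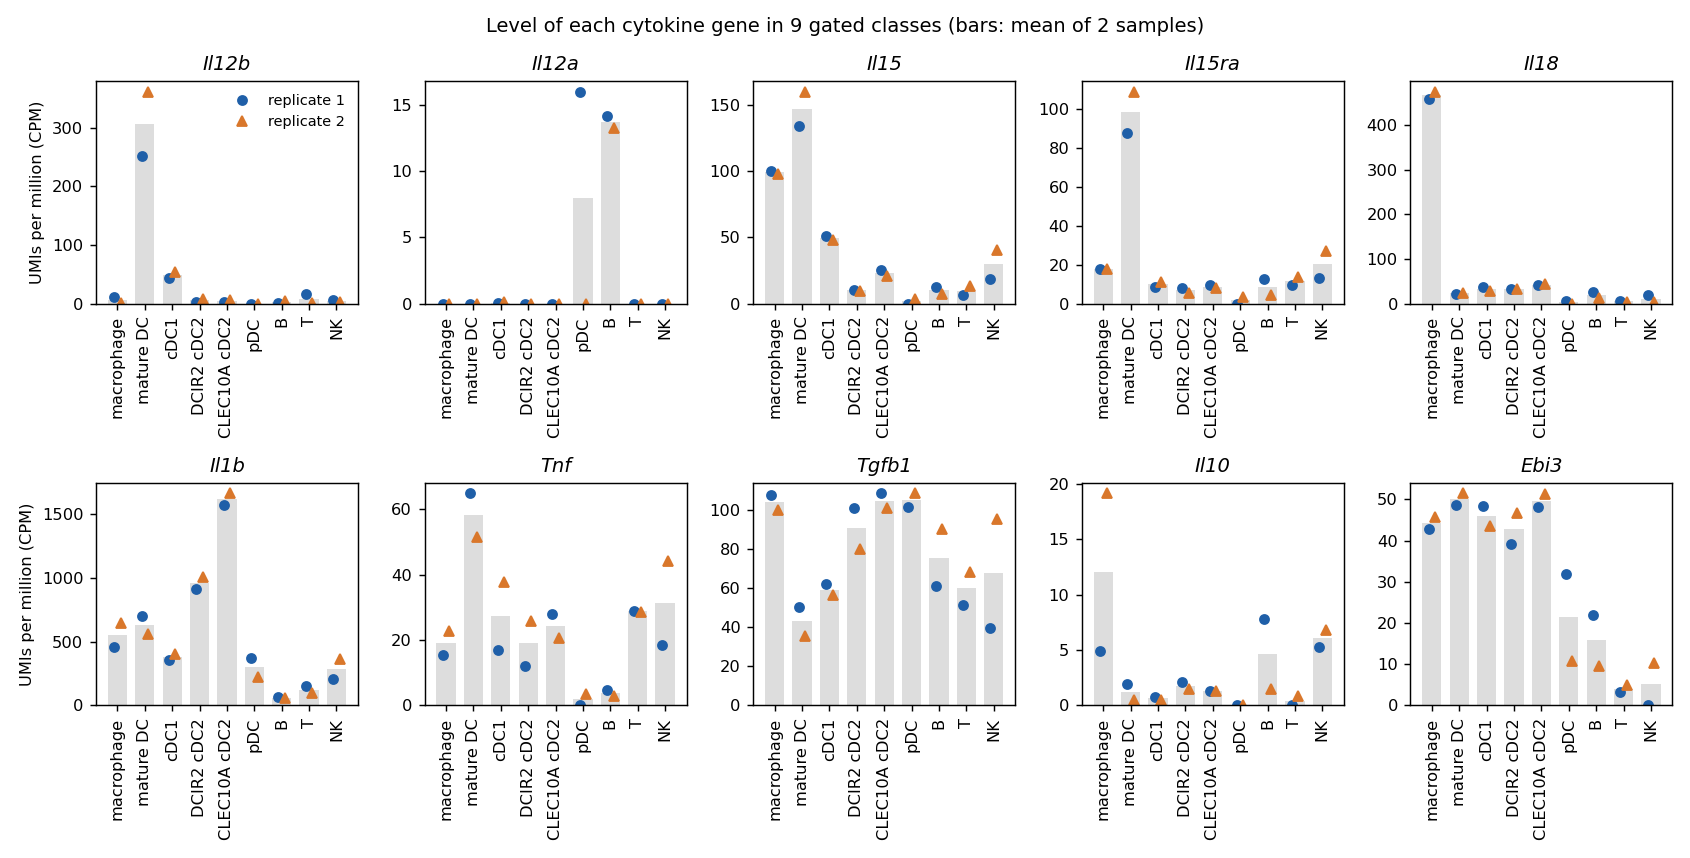
Level of each cytokine gene in the 9 gated classes, in CPM (linear axes that start at 0 and differ between panels). Bars are the mean of the 2 samples, circles replicate 1 and triangles replicate 2. Il12b reaches 251 and 361 CPM in mature DCs, Il18 458 and 475 CPM in macrophages, and Il12a stays at 0.0846 CPM or below outside B cells and 1 pDC sample.

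Il12b, the p40 chain, was carried by mature DCs and, at a lower level, by cDC1s. It stood at 251 CPM in replicate 1 and 361 CPM in replicate 2 of mature DCs (306 ± 78.1, SD, n = 2). In cDC1s it stood at 43.9 and 54.3 CPM (49.1 ± 7.35), and no other class had a mean above 8.46 CPM. Mature DCs exceeded cDC1s in both samples, by 2.57 on the log2 scale (SE 0.35, adjusted p = 8.59e-06 with edgeR and 0.0594 with DESeq2). Against the other 8 classes the log2 difference was 6.62 in mature DCs (SE 0.34, adjusted p = 1.48e-11) and 3.73 in cDC1s (SE 0.44, adjusted p = 1.46e-06). These sizes rest in part on pDCs, which held 0 Il12b UMIs. Without that class they were 5.69 and 2.76. Below cDC1s, the order of T cells, macrophages, DCIR2 cDC2s, NK cells, CLEC10A cDC2s and B cells, from 8.46 to 2.63 CPM, showed no difference between neighbours beyond the spread.

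The Il12b signal came from few cells. An Il12b UMI was found in 15.2% (95% Clopper-Pearson interval 9.67 to 22.3) and 22.5% (16.5 to 29.5) of mature DCs and in 5.56% (3.96 to 7.55) and 8.07% (5.97 to 10.6) of cDC1s. Intervals cover counting error only. In T cells, which should lack the gene, the share was 2.44% and 0.629%, or 1 cell of 41 and 1 of 159. Their median depth was 6145 and 6490 UMIs per cell, against 10399 and 10738 in mature DCs. With every cell thinned to 5000 UMIs, which left out 20 mature DCs, 26 cDC1s and 36 T cells as too shallow, the shares were 12.6% and 19.5% in mature DCs, 3.15% and 4.63% in cDC1s and 3.03% and 0.763% in T cells. The cDC1 share lay close to the T cell share in replicate 1. That T cell share rests on 1 cell, with 33 T cells deep enough to be thinned, so it is a loose yardstick.

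The cell filter had removed 3 cells of replicate 1 and 11 of replicate 2 with at least 10 Il12b UMIs, which held 55 and 675. In replicate 2 it kept 570 of 710 cDC1s and 173 of 187 mature DCs. The difference between mature DCs and cDC1s was not refitted with all deposited cells. Among the kept cells, those with at least 10 Il12b UMIs numbered 56 of 5653, and they held 85.2% of the Il12b UMIs kept. By class, 24 of them were mature DCs, 21 cDC1s, 7 ungated, 2 DCIR2 cDC2s, 1 a CLEC10A cDC2 and 1 a macrophage. That single macrophage held 54 of the 65 Il12b UMIs of its class in replicate 1, and without it the level there was 2.00 CPM in place of 11.8. A UMI of Ccr7, the chemokine receptor that takes maturing DCs to the T cell zone, was found in 50 of the 56, against 15.9% of all cells with fewer Il12b UMIs. The gate of mature DCs fixes this for 24 of the 50. A UMI of Xcr1, Clec9a or Cd207, genes of cDC1s, was found in 45 of the 56, against 46.4% of the others, and the gate of cDC1s fixes it for 21 of the 45. The median depth was 16675.5 UMIs in the 56 cells and 11784 in the others.

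**Figure D2:**
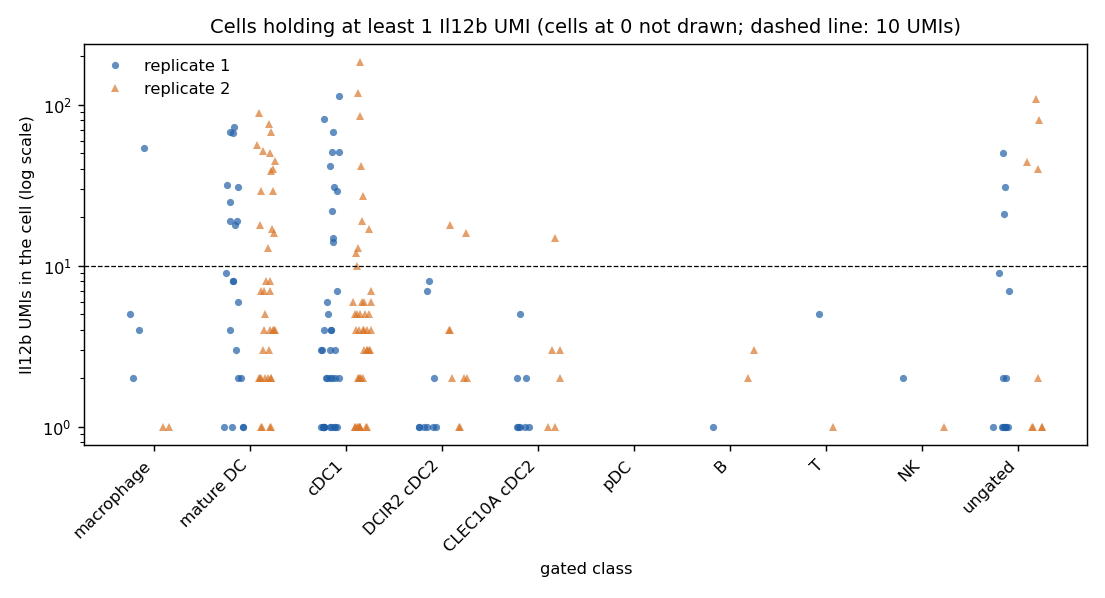
Il12b UMIs in each cell with at least 1, on a log axis, by gated class and for ungated cells. Circles are cells of replicate 1 and triangles cells of replicate 2, cells with 0 UMIs are not drawn and the dashed line marks 10 UMIs. Of the 56 cells at or above the line, 24 were mature DCs and 21 cDC1s.

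Within cDC1s, most cells rich in Il12b held Ccr7, while most cells with Ccr7 were not rich in Il12b. Of the 21 cDC1s with at least 10 Il12b UMIs, 17 held a Ccr7 UMI, and of the 1233 cDC1s with fewer Il12b UMIs, 62 did (5.03%). Cells with at least 2 Ccr7 UMIs that also held Fscn1, the actin-bundling protein of mature DCs, had already been gated as mature DCs and could not be among them. The 35 and 44 cDC1s with a Ccr7 UMI had 733 and 512 CPM of Il12b, and the 649 and 526 without one had 7.14 and 11.6 CPM. Tnf, the gene of tumor necrosis factor, stood at 107 and 162 CPM against 12.2 and 26.0 CPM in the same cells. Il15 stood at 118 and 47.5 CPM against 47.4 and 47.8 CPM, so that it was higher in 1 sample only, and Il1b at 299 and 458 CPM against 358 and 401 CPM. This division by Ccr7 was chosen after the values were seen and was not tested.

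Il12a, the p35 chain, had its highest mean level in B cells. Of its UMIs, 9 and 18 lay in B cells (14.1 and 13.3 CPM, 13.7 ± 0.61, SD, n = 2), 3 in a single pDC of replicate 1, 1 in each sample of cDC1s and 1 in an ungated cell. Mature DCs had 0 cells with an Il12a UMI of 138 and 173, which allows shares of up to 2.17% and 1.73% (here and below, 3 counts of the total). In B cells the share was 10.8% (4.44 to 20.9) and 7.56% (4.09 to 12.6), and in T cells it was 0 of 41 and 159 cells, which allows up to 7.32% and 1.89%. The difference of B cells from the other 8 classes passed with edgeR (adjusted p = 1.76e-05) and did not pass with DESeq2 (adjusted p = 0.309). No size is given for it, since most of the other classes were at 0. Marker genes of plasma cells (Jchain, Xbp1, Mzb1 and Sdc1) summed to 7228 and 1315 CPM in the B cell class and to at most 232 CPM in the other classes. Their part in the Il12a level was not tested. No cell with an Il12b UMI (212 cells) held Il12a (24 cells) or Il23a (6 cells), and with so few cells this does not show that the chains lie in separate cells.

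Il15 followed an order of mature DCs, macrophages and cDC1s, each step larger than the spread. It stood at 134 and 160 CPM in mature DCs (147 ± 18.1, SD, n = 2), at 100.3 and 97.9 CPM in macrophages (99.1 ± 1.75) and at 50.9 and 47.8 CPM in cDC1s (49.4 ± 2.21). Mature DCs exceeded macrophages by 0.53 on the log2 scale (SE 0.17, adjusted p = 0.0154) and macrophages exceeded cDC1s by 0.97 (SE 0.17, adjusted p = 6.47e-05). NK cells, at 18.6 and 40.8 CPM, lay below cDC1s by 1.23 (SE 0.33, adjusted p = 0.00828) and did not differ from CLEC10A cDC2s (23.3 CPM) beyond the spread. CLEC10A cDC2s exceeded DCIR2 cDC2s (10.4 and 9.66 CPM) by 1.29 (SE 0.22, adjusted p = 0.000879). B cells, at 9.96 CPM, did not differ beyond the spread from DCIR2 cDC2s above them in the order or from T cells (9.74 CPM) below them.

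The share of cells with an Il15 UMI gave another order than the level per class. It was 65.2% and 64.6% in macrophages, 35.5% and 38.2% in mature DCs, 38.3% and 38.1% in cDC1s and 2.44% and 6.92% in T cells. After thinning to 5000 UMIs the shares were 32.1% and 35.9% in macrophages, 22.8% and 28.0% in mature DCs and 17.3% and 17.8% in cDC1s. Mature DCs thus had fewer cells with an Il15 UMI than macrophages and a higher level in CPM.

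Il15ra, which carries IL-15 to the surface for presentation, was highest in mature DCs. It stood there at 87.7 and 109 CPM (98.3 ± 15.1, SD, n = 2), and the next class, NK cells, at 13.3 and 27.2 CPM. Mature DCs exceeded NK cells by 2.69 on the log2 scale (SE 0.41, adjusted p = 3.93e-05) and the other 8 classes by 3.59 (SE 0.20, adjusted p = 2.14e-11). Macrophages had 17.7 and 17.9 CPM, a log2 difference of 0.87 from the other classes (SE 0.27, adjusted p = 0.00996, or 0.0623 without the pDC class). The remaining classes did not differ from their neighbours in the order. Of 115 mature DCs with an Il15 UMI, 49.6% also held an Il15ra UMI, where 24.4% of all mature DCs did. The share was 24.7% of 275 such macrophages, where 20.6% of all macrophages held Il15ra, and 72 of 479 such cDC1s, where 12.4% of all cDC1s did. The median depth of the cells with Il15 was 11143 UMIs in mature DCs, 21012 in macrophages and 21719 in cDC1s.

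**Figure D3:**
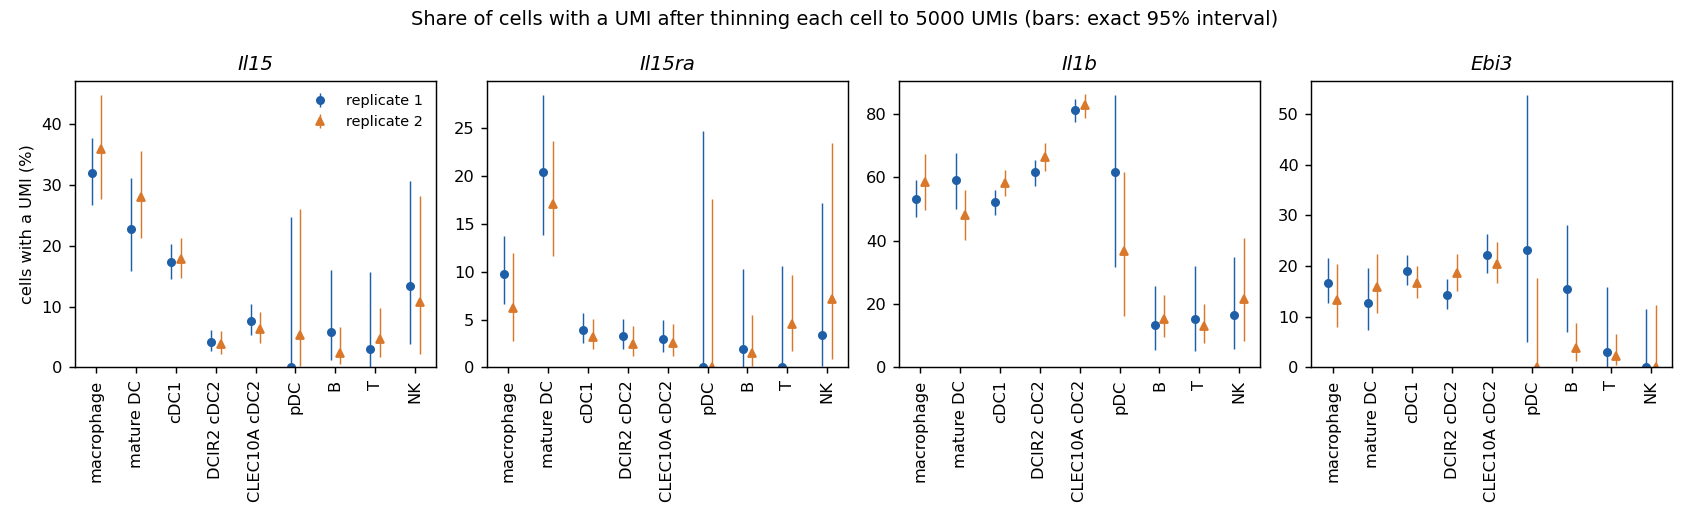
Share of cells with a UMI of Il15, Il15ra, Il1b and Ebi3 after each cell was thinned to 5000 UMIs, with exact 95% binomial intervals (linear axes from 0, which differ between panels). Circles are replicate 1 and triangles replicate 2. Il15ra stands at 20.5% and 17.1% in mature DCs, and Il1b at 81.2% and 82.8% in CLEC10A cDC2s.

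Il18, whose product acts with IL-12 on NK cells, marked macrophages. It stood at 458 and 475 CPM there (467 ± 12.1, SD, n = 2), with a UMI in 98.0% and 99.2% of the cells, and CLEC10A cDC2s came next with 40.8 and 44.0 CPM. The step between them was 3.56 on the log2 scale (SE 0.19, adjusted p = 1.03e-11), and against the other 8 classes it was 5.20 (SE 0.14, adjusted p = 5.05e-17). After thinning to 5000 UMIs, 88.9% and 86.7% of macrophages still held a UMI, and 0 of 33 (which allows up to 9.09%) and 2.29% of T cells did. DCIR2 cDC2s and cDC1s, with 33.2 and 32.5 CPM, did not differ from CLEC10A cDC2s and from each other in turn. In cDC1s Il18 was higher than in the other classes by 0.92 (SE 0.22, adjusted p = 0.00182).

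Il1b was found in every class and had its highest level in CLEC10A cDC2s. It stood at 1574 and 1663 CPM there (1619 ± 63.3, SD, n = 2) and at 911 and 1007 CPM in DCIR2 cDC2s, a log2 difference of 0.83 (SE 0.20, adjusted p = 0.0153). Mature DCs had 700 and 557 CPM, macrophages 455 and 647 CPM and cDC1s 355 and 406 CPM. The samples of mature DCs and macrophages overlapped (adjusted p = 0.565), and macrophages exceeded cDC1s by 0.49 (SE 0.20, adjusted p = 0.0479 with edgeR and 0.0721 with DESeq2). B cells were lowest, with 64.4 and 55.3 CPM. T cells, which should lack the gene, held an Il1b UMI in 19.5% and 13.8% of cells, against 87.2% and 87.3% in CLEC10A cDC2s. Against the other 8 classes Il1b was higher by 2.51 in CLEC10A cDC2s (SE 0.13, adjusted p = 6.44e-11), where 18.7% of all genes and 4 of the 10 cytokine genes differed, and by 1.57 in DCIR2 cDC2s, where 23.5% of all genes and 4 of the 10 did. Of the other calls in DCIR2 cDC2s, Il15 (-1.26) and Il18 (0.72) did not pass among cells meeting only 1 gate (-0.91 with adjusted p = 1.00, and 1.32 with adjusted p = 0.114). Over the 10 settings fitted, the Il18 difference ran from 0.24 to 1.32, with an adjusted p of up to 0.397 (edgeR or DESeq2). Monocyte marker genes summed to 1625 and 1954 CPM in CLEC10A cDC2s and 1132 and 1516 CPM in DCIR2 cDC2s, against 3817 and 3973 CPM in macrophages. Of the 9 markers 6 were higher in the former than in the other classes and 2 in the latter, 0 were at 0 UMIs, and their part in the Il1b level was not tested.

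Tnf was highest in mature DCs, at 65.0 and 51.5 CPM (58.2 ± 9.53, SD, n = 2), by 2.18 on the log2 scale over the other classes (SE 0.34, adjusted p = 3.98e-05). NK cells came next with 18.6 and 44.1 CPM, and the samples of the 2 classes did not differ beyond the spread (adjusted p = 0.112). In cDC1s Tnf stood at 17.03 and 37.7 CPM and passed against the other 8 classes (1.05, SE 0.33, adjusted p = 0.0149). It did not pass there with all deposited cells (adjusted p = 0.0740) or without the pDC class (0.0826). In cDC1s of replicate 2, 1 cell held 84 of the 445 Tnf UMIs.

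Tgfb1 ran the other way in mature DCs. It stood at 50.4 and 35.5 CPM there (43.0 ± 10.6, SD, n = 2), the lowest mean of the 9 classes. This was 0.80 below the others on the log2 scale (SE 0.19, adjusted p = 0.00279) and 0.56 below cDC1s, the next class (SE 0.22, adjusted p = 0.0485). In replicate 1 NK cells were lower, at 39.8 CPM. The pDCs, CLEC10A cDC2s and macrophages, with means of 105, 105 and 104 CPM, did not differ from each other in that order. Macrophages (0.70, adjusted p = 0.000433) and CLEC10A cDC2s (0.60, adjusted p = 0.00468) were higher than the other classes.

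Il10 was sparse. Macrophages held 27 and 47 UMIs (4.88 and 19.2 CPM), in 10 and 9 cells, and exceeded the other 8 classes by 3.65 on the log2 scale (SE 0.59, adjusted p = 3.62e-05). In replicate 2, 3 macrophages held 83.0% of the Il10 UMIs of the class. NK cells held 2 UMIs in each sample (6.05 CPM), and macrophages did not differ from them beyond the spread (adjusted p = 0.331). No other class had a mean above 4.66 CPM.

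Ebi3, the chain shared by IL-27 and IL-35, was the most even of the genes among DCs and macrophages. Its mean was 50.0 CPM in mature DCs, 49.7 in CLEC10A cDC2s, 46.1 in cDC1s, 44.3 in macrophages and 42.9 in DCIR2 cDC2s, and no neighbours in that order differed beyond the spread. Each of these 5 classes was higher than the mean of the other 8, by 1.07 to 1.48 on the log2 scale. T cells (3.22 and 4.89 CPM) were lower by 2.66 (SE 0.52, adjusted p = 0.000526), a call lost after thinning to 5000 UMIs (-1.52, adjusted p = 1.00). An Il27 UMI was found in 234 cells, of which 43.2% also held Ebi3, where 1843 of all 5653 cells held Ebi3. Macrophages gave 42 of the 101 cells with both, and 192 of all 423 macrophages held Ebi3. Ebi3 and Il12a, the chains of IL-35, were found together in 4 cells.

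**Figure D4:**
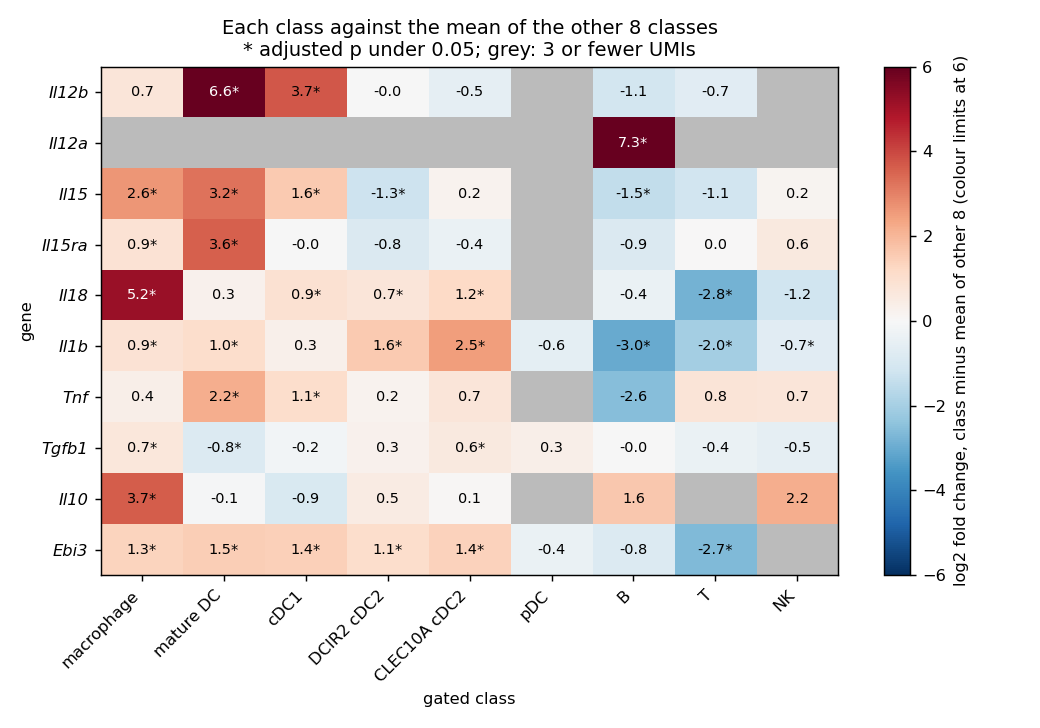
Log2 difference of each cytokine gene between a class and the mean of the other 8 classes. Columns are the gated classes, colours run from blue (lower) to red (higher) and saturate at 6, stars mark an adjusted p under 0.05 (edgeR) and grey cells had 3 or fewer UMIs. The column of mature DCs holds 7 stars and the column of macrophages 7.

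In the lymphoid classes and pDCs, few of the genes were higher. B cells had 1 gene higher (Il12a) and 2 lower (Il15 and Il1b), where 30.1% of all genes differed. The Il15 difference in B cells (-1.49) did not pass among cells meeting only 1 gate (-0.76, adjusted p = 1.00) or after thinning (-1.01, adjusted p = 0.101). T cells had 3 lower (Il18, Il1b and Ebi3), where 28.3% differed, and the Il18 call was lost among cells meeting only 1 gate (-2.20, adjusted p = 1.00). NK cells had 2 lower (Il1b, and Ebi3 on 3 UMIs), where 15.1% differed. The Il1b difference in NK cells (-0.69, SE 0.20, adjusted p = 0.0257) did not pass with DESeq2 (0.0698). In pDCs 3 passed, Il12a, Il15 and Il18, where 10.2% of all genes differed, and each rested on at most 3 UMIs in the class.

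The study asked how metallophilic macrophages, which carry Siglec1, and Langerin+ cDC1s communicate. Macrophages were therefore set against cDC1s, and both were split by a UMI of Siglec1 or Cd207. The macrophage gate here used Vcam1 and C1qb, while the study took metallophilic macrophages by their Siglec1 level. The Siglec1+ cells of this gate need not be the same cells. Between macrophages and cDC1s 7 of the 10 cytokine genes differed, where 50.3% of all genes did. Il18 (3.80), Il10 (4.05), Il15 (0.97), Il15ra (0.80), Tgfb1 (0.78) and Il1b (0.49) were higher in macrophages on the log2 scale, and Il12b was lower by 2.66 (SE 0.46, adjusted p = 7.03e-05).

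Langerin+ cDC1s (at least 1 Cd207 UMI, 116 and 113 cells) were set against Langerin- cDC1s (568 and 457 cells) of the same 2 samples. In the fit without the sample as a block, 0 of the 8 cytokine genes tested passed, where 0.85% of 11054 genes differed. At an unadjusted p under 0.05, 1336 genes did. Median depth was 22445 and 23444 UMIs in Langerin+ and 19023.5 and 20248 UMIs in Langerin- cDC1s. A cell without a Cd207 UMI may still carry the gene. Il12b stood at 70.3 and 23.4 CPM in Langerin+ and 37.9 and 63.1 CPM in Langerin- cDC1s, so the 2 samples ran in opposite directions. Tnf stood at 27.2 and 65.5 CPM in Langerin+ and 14.7 and 29.8 CPM in Langerin- cDC1s, higher in both samples, by 1.17 on the log2 scale (SE 0.39, adjusted p = 0.275). With the sample as a block the same comparison gave 1.13 for Tnf (adjusted p = 5.46e-09) and 0.25 for Il1b (adjusted p = 0.00102), on 4 sums in all.

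Siglec1+ macrophages (112 and 56 cells) did not differ from Siglec1- macrophages (181 and 74 cells) in any of the 8 cytokine genes tested, where 0.021% of 9528 genes, or 2, differed. At an unadjusted p under 0.05, 346 genes did, and DESeq2 called 1. Median depth was 20859 and 19019 UMIs in Siglec1+ and 17903 and 17986.5 UMIs in Siglec1- macrophages. A cell without a Siglec1 UMI may still carry the gene. The split thus does not show whether metallophilic macrophages differ from other macrophages. Il18 stood at 468 and 479 CPM in Siglec1+ and 451 and 472 CPM in Siglec1- macrophages, a log2 difference of 0.03 (SE 0.11). Il15 stood at 94.6 and 117 CPM against 104 and 82.7 CPM, in opposite directions in the 2 samples. Il12b had 0 UMIs in Siglec1+ macrophages, and the 67 UMIs of the class all lay in Siglec1- cells. Only 6 cells held them, and 1 cell of replicate 1 held 54. With so few cells this does not show that Siglec1+ macrophages lack Il12b.

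The mature DCs were split by whether they held a UMI of Xcr1, Clec9a or Cd207. Those with such a UMI (32 and 51 cells) carried more Il12b, Il15, Il15ra and Tnf than those without (106 and 122 cells), and 4 of the 8 cytokine genes tested passed, where 2.48% of 8218 genes did. Over the 8 genes the median log2 difference was 0.88, against -0.01 over all genes tested. Median depth was 12649.5 and 13055 UMIs with and 9537 and 10240 UMIs without.

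Il12b stood at 577 and 889 CPM with cDC1 transcripts and at 122 and 75.5 CPM without, and the groups did not overlap (log2 difference 3.01, SE 0.28, adjusted p = 0.000708). Il15 stood at 240 and 247 CPM against 92.5 and 113 CPM (1.35, SE 0.20, adjusted p = 0.00710). Il15ra stood at 124 and 226 CPM against 73.1 and 45.5 CPM (1.70, SE 0.33, adjusted p = 0.0275, or 0.0592 with the sample as a block). Tnf, at 111 and 89.6 CPM against 46.7 and 30.8 CPM, was higher by 1.46 (SE 0.29, adjusted p = 0.0296), and did not pass with all deposited cells (0.0807). Among cells that met only 1 gate, Il12b and Il15ra passed and Il15 (adjusted p = 0.0630) and Tnf (0.229) did not. Il1b, Ebi3, Tgfb1 and Il18 differed by -0.30, 0.31, 0.24 and 0.41 and did not pass.

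**Figure D5:**
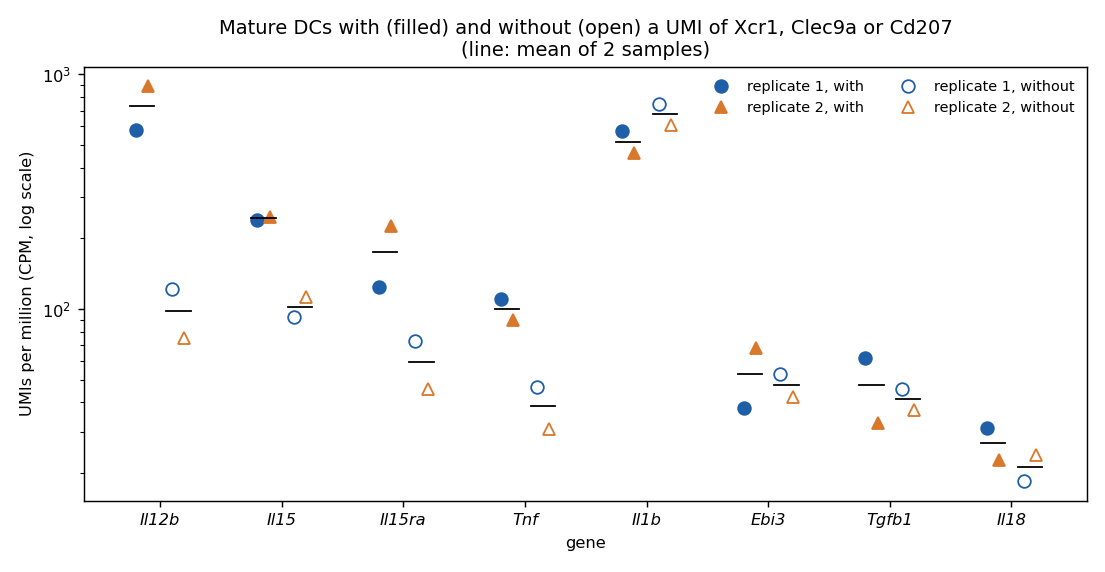
Level of 8 cytokine genes in mature DCs with (filled) and without (open) a UMI of Xcr1, Clec9a or Cd207, in CPM on a log axis. Circles are replicate 1, triangles replicate 2 and lines the mean of the 2 samples. The filled points lie above the open ones in both samples for Il12b, Il15, Il15ra and Tnf.

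The 8 cDC1 marker genes outside the split (among them Irf8 and Naaa) summed to 1772 and 933 CPM in mature DCs with cDC1 transcripts and to 683 and 920 CPM in those without, against 6450 and 6565 CPM in cDC1s, 1859 and 1899 CPM in macrophages and 1366 and 1595 CPM in B cells. The sum was higher with the transcripts in replicate 1 and nearly level in replicate 2, 7 of the 8 markers had the higher mean with the transcripts, and their part in the cytokine levels was not tested. Among mature DCs, 42 of the 60 cells with an Il12b UMI held an Il15 UMI (70.0%), where 37.0% of all mature DCs did, and in cDC1s 32 of 84 did (38.1%), where 38.2% of all cDC1s did. Cells with an Il12b UMI were deeper in both classes (median 13037.5 against 10380 UMIs in mature DCs and 22996.5 against 20161.5 in cDC1s).

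Genes that work with these cytokines were taken from 3 lists, of partner cytokines, of genes for maturation and release, and of receptors. Of 19 partner cytokines, 8 passed the filter on low counts. In mature DCs, where 31.9% of all genes differed, 4 of the 8 were higher and 0 lower, namely Il33 (4.73 on the log2 scale), an alarmin, Il6 (4.51), Il27 (2.21), the p28 partner of EBI3, and Tnfsf9 (2.23), which encodes the ligand of the costimulatory receptor 4-1BB. In macrophages, where 51.3% of all genes differed, Il1a (8.30), which signals through the IL-1 receptor, Il27 (2.92) and Il6 (3.50) were higher and Tnfsf9 was lower, on 2 UMIs. In cDC1s, where 39.6% did, Il33 was higher by 4.55 and Clcf1 was lower (-0.48). Il6 lay at no more than 6.78 CPM in any gated class. Ifng, the cytokine that IL-12 and IL-18 raise, was higher in NK cells and T cells, at 49.7 and 17.1 CPM, and lay at no more than 0.0916 CPM in the other gated classes.

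Of 17 genes for maturation and release, 13 were tested, and 8 were higher in macrophages with 1 lower, 4 higher and 1 lower in mature DCs, 2 higher and 5 lower in cDC1s, and 8 higher and 0 lower in CLEC10A cDC2s. Over all genes, 51.3%, 31.9%, 39.6% and 18.7% differed in these classes. Casp1, the protease that matures IL-1 beta and IL-18, was higher by 1.44 in macrophages and 0.76 in CLEC10A cDC2s and lower by 1.30 in cDC1s. Il18bp, the soluble trap of IL-18, was higher by 5.49 in macrophages, at 148 CPM, the class with the most Il18, and fell by 1.94 in cDC1s. Nlrp3, a sensor that activates caspase-1, was higher by 1.78 in CLEC10A cDC2s and 1.72 in DCIR2 cDC2s. Il1rn, the IL-1 receptor antagonist, was higher by 4.71 in mature DCs (30.2 CPM) and by 4.02 in CLEC10A cDC2s (20.4 CPM), and Il1r2, the decoy receptor of IL-1, by 2.20 in CLEC10A cDC2s and 2.36 in DCIR2 cDC2s. In mature DCs Gsdmd, the pore through which IL-1 beta leaves the cell, was higher by 1.20, and Pycard, the inflammasome adaptor, was lower by 0.82.

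The 16 receptor genes were all tested, in classes where 15.1% (NK cells), 28.3% (T cells), 51.3% (macrophages) and 31.9% (mature DCs) of all genes differed. In NK cells 7 were higher and 2 lower, the former with them Il2rb (9.31), the signalling chain of the IL-15 receptor, Il18r1 (6.87), Il18rap (6.79), Il12rb1 (6.07) and Il12rb2 (2.09), and in T cells 7 were higher and 5 lower, the former with Il2rb (7.01), Il18r1 (5.82) and Il12rb1 (4.32). Macrophages had 7 higher and 5 lower, with higher Il1r1 (3.93), Il10rb (2.23), Tgfbr2 (1.90), Tnfrsf1a (1.61) and Tgfbr1 (1.20), and mature DCs had 6 higher and 1 lower, with higher Tnfrsf1b (2.46), a TNF receptor, and lower Tgfbr2 (-1.50).

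The genes whose levels ran most like each cytokine gene over the 18 sums of class and sample were picked among 6235 genes with at least 50 CPM in some class. The correlations are descriptions, and sums of 1 sample share its libraries. For Il12b they were Mab21l3 (r = 0.95), Tm4sf5 (0.92) and Apol7c (0.89), all highest in mature DCs. For Il15ra the nearest gene was Il15 (0.87), then Tuba1c and Tyk2, and for Il15 they were Tmem140, Tuba1c and Sqstm1. For Il12a they were Mzb1 (0.91), Hs3st1 and Arid3a, all highest in B cells. For Il18 they were Plxna1, Dhrs1 and Skp2, and for Il10 Serpina3f and Rhoq, all highest in macrophages. For Il1b they were Atf3, 1600010M07Rik and Ifitm3, all highest in CLEC10A cDC2s. Tnf ran most like Chmp2a, Gyg and Eloc, Tgfb1 like Xiap and Pnpla7, and Ebi3 like Rsu1, Lpcat1 and Cd83 (0.79 to 0.89).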

How the data were processed

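Per the submitters' notes and the study's methods, the authors made UMI counts per cell and gene with the BD Rhapsody WTA Analysis Pipeline 1.12.1 on GRCm38, with intronic reads counted, and used R 4.2.3 and Seurat 4.3.0.1. The deposited counts were not normalized. The sources do not say whether counting used the strand.

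Cells were filtered after the study's description (at least 200 genes, and limits at 3 median absolute deviations from the mean), which left a median of 12220 and 11435 UMIs per cell. The study does not fully say how it set these limits, and the mitochondrial limit here was on the percent of UMIs. Cells were then gated by UMIs, the first gate met deciding. The libraries shared 0 cell barcodes, and 0 columns were left unmapped. Scrublet in scanpy 1.11.5 called 37 kept cells (0.655%), which were kept and left out only as an alternative. UMIs were summed by class and sample (18 sums) and fitted with edgeR 4.0.16 (quasi-likelihood, TMM, filterByExpr, adjusted p under 0.05), in R 4.3.3, with 4 sums for each split within a class. SEs were taken from the F statistic. DESeq2 1.42.0, other scaling, filters, gates, thinning and a sample block were alternatives, and leaving out the pDC class or the cell with most UMIs was chosen after seeing the data. On data simulated for mature DCs against the other classes (11917 genes), 169 of 200 genes changed 4-fold and 129 of 200 changed 2-fold were recovered. For the split of mature DCs (8220 genes) these were 157 and 20 of 200. They were 176 and 133 for the Langerin split, 177 and 112 for the Siglec1 split and 113 and 41 for pDCs. False calls ran from 0 to 13. The changed genes were drawn at any level, so these counts need not hold for sparse genes such as Il12a and Il10 or for Il12b.

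Same-numbered sums came from the same sample. Their deviations from the class means correlated at -0.0523 to 0.325 over 36 pairs of classes. The groups of the splits within a class were not checked in this way. The 10 genes and all lists were chosen with earlier results of these data known. All 10 genes are described. Genes of the 3 lists are named where they passed in mature DCs, macrophages or cDC1s or are a partner chain or receptor, and the 3 genes with the highest correlation to each cytokine gene are named, except 1 for Tgfb1 and 1 for Il10 that are not reported here. The division of cDC1s by Ccr7 falls outside this rule, as do list genes given for CLEC10A or DCIR2 cDC2s. Other tools were Python 3.11.15, numpy 2.4.6, pandas 2.3.3, scipy 1.17.1 and matplotlib 3.10.9.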

Additional observations from a re-analysis of the deposited data

Results flagged for a closer look

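Cells that met no gate entered no comparison, and 2 of the cytokine genes stood high in them. Il12b was at 21.5 and 46.2 CPM in these cells (mean 33.9 CPM), above every class but mature DCs and cDC1s in both samples. The 7 ungated cells with at least 10 Il12b UMIs held 376 UMIs, all 7 held a Ccr7 UMI and 5 held a UMI of Clec9a, Xcr1 or Cd207. Il1b was at 856 and 957 CPM in ungated cells (mean 907 CPM), above 7 of the 9 classes in both samples.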

How the results depend on the processing

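Among the comparisons of a class with the others, pDCs moved most, from 1216 genes to 651 with only cells meeting 1 gate and 471 after thinning to 5000 UMIs, and from 3 cytokine genes to 6 with no filter on low counts, 0 with cells meeting 1 gate and 0 after thinning. Cytokine genes called went from 3 to 1 (thinned) or 6 (pDC class left out) in B cells, from 2 to 1 in NK cells (DESeq2, RLE size factors, all deposited cells, thinned) and from 4 to 2 in DCIR2 cDC2s (1 gate). For Langerin+ against Langerin- cDC1s, 94 genes became 438 (no filter), 657 (replicate block) and 47 (1 gate), and 0 cytokine genes became 1 (no filter), 2 (replicate block) and 1 (thinned). For Siglec1+ against Siglec1- macrophages, 2 genes became 1 (DESeq2), 75 (no filter), 42 (replicate block), 12 (all deposited cells) and 0 (1 gate), and 0 cytokine genes became 1 (no filter). For mature DCs with against without cDC1 transcripts, 204 genes became 543 (no filter) and 75 (1 gate), and 4 cytokine genes became 2 (1 gate). Log2 differences that changed sign were Il12a in pDCs (-1.25 with 1 gate, -0.58 without replicate 1 and 3.99 without replicate 2); for Langerin, Il12b (0.45 all deposited cells, 0.55 thinned, -1.34 to 0.98 without 1 replicate), Il15 (0.025 all deposited cells, 0.061 thinned, -0.31 to 0.25 without 1 replicate) and Il18 (0.087 thinned); for Siglec1, Il15 (-0.0097 thinned, -0.14 to 0.46 without 1 replicate), Il18 (-0.0077 to 0.059 without 1 replicate) and Tnf (0.29 all deposited cells); and Il1b in the split of mature DCs (0.052 with 1 gate). None of these had passed the test except Il12a in pDCs, and the cause was not tested. With the replicate block, of the single-gene calls the Il12a call in pDCs was lost (adjusted p = 0.0570) besides the changes given above, and all 17 pairs of classes recomputed stayed on their side of the threshold. Leaving out 1 replicate gives a difference with no test. The cell filter removed 88 of 1308 and 731 of 2460 Il12b UMIs. Few cells limit pDCs, NK cells and Il12a and Il10 everywhere.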
